A study of Mus musculus with 32 samples.

Results

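The hepatocyte growth factor (HGF), lactogen and serotonin axes were represented by 9 of the 22850 genes in the table: the ligand Hgf and its receptor Met, connective tissue growth factor (Ctgf), the prolactin and growth hormone receptors (Prlr, Ghr), the tryptophan hydroxylases (Tph1, Tph2) and the serotonin receptors Htr2b and Htr1d. They were chosen by name as genes of signals that act as mitogens on β cells, with earlier results of these data known, and each of the 9 had a row. In 8 of the 9 the mean score reached 20 in at least 1 group. Htr1d did not, with scores of 1 to 25 over the 32 libraries, and was not tested in any comparison.

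The libraries came from islets of adult βVEGF-A; MIP-GFP mice, in which RIP-rtTA places the doxycycline (Dox)-dependent activator in β cells, TetO-VEGF-A is switched on by Dox, and MIP-GFP marks cells that use the mouse Ins1 promoter. Every group carried all 3 transgenes, including the baseline group without Dox (No Dox). The other groups received Dox in the drinking water for 1 week (1wk Dox), or the same followed by 1 week of withdrawal (1wk WD). Islets of several mice were pooled for each sample and sorted into GFP+ β cells, CD31+ endothelial cells (ECs) and CD11b+ macrophages (MΦs). In that order of time points there were 4, 5 and 3 β-cell libraries, 4, 1 and 5 EC libraries, and 4, 2 and 4 MΦ libraries. The column codes of the MΦ and EC libraries at 1wk Dox and of 1wk WD β-cell replicate 3 form a run apart from all others. What the codes stand for is not given. In MΦs and ECs the effect of 1wk Dox cannot be told apart from this separate run. The β cells were gated as negative for CD31 and CD11b. The study profiled the 3 populations to look for signals that pass between them and the matrix. Values are the authors' normalized expression, called scores here, which are whole numbers with a lowest value of 1. A difference is said to pass where the adjusted p of limma, a linear model fitted across all genes, was under 0.05 and the fold at least 2, and differences are on the log2(score + 1) scale with their standard error (SE).

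The labelled cell types carried their own markers. The 9 β-cell markers, insulin among them, made up 1.45% to 27.9% of the total score in β-cell libraries and at most 0.0861% elsewhere. The EC markers made up 1.26% to 1.83% in ECs, and the MΦ markers 0.57% to 1.32% in MΦs. Several libraries also held transcripts of other cells. Transcripts of digestive (acinar) enzymes took 21.8% and 18.9% of the score in No Dox β-cell replicates 3 and 4 and 19.5% in No Dox MΦ replicate 2, with more than 4% in No Dox EC replicate 2 and No Dox MΦ replicate 4. Summed scores of 10 pericyte and fibroblast markers ran from 1031 to 540417 in β cells at No Dox, from 107869 to 505631 at 1wk Dox and from 25966 to 369149 at 1wk WD, with the low values in No Dox replicates 1 and 2 and in 1wk WD replicate 3. The EC markers also moved in β-cell libraries, with summed scores of 1636 to 7404 at No Dox, 1503 to 55274 with 1wk Dox and 4319 to 16711 after 1wk WD. Their mean log2(score + 1) was above every No Dox library (7.47 to 8.96) in 4 of the 5 1wk Dox libraries (9.21 to 12.55) and below them in replicate 5 (7.06). The part of these transcripts in the results below was not tested, and values with and without the libraries are given where a call depends on them.

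HGF is a secreted growth factor made mainly by mesenchymal cells and some leukocytes, and it signals through the receptor tyrosine kinase MET. CTGF is a matrix-associated protein of the CCN family whose gene is a standard target of the transcriptional co-activators YAP and TAZ acting with TEAD factors. Prolactin and growth hormone receptors signal through the kinase JAK2 and the transcription factor STAT5, and in pregnancy this route enlarges the β-cell mass. A known step of it is the induction in β cells of tryptophan hydroxylase, the rate-limiting enzyme of serotonin synthesis. The serotonin then acts back on β cells, with proliferation attributed to the receptor HTR2B in pregnancy and a restraining role to HTR1D.

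Promoter sequences show where the STAT5 consensus lies in this set. RefSeq transcript starts (GRCm38.p6) gave 14 windows for 8 of the 9 genes, each covering 250 bases before to 50 bases after the start, and no window was given for Ctgf. The consensus TTCNNNGAA, which reads the same on both strands, was found in 1 of the 14 windows, the middle of the 3 of Prlr, against 8.3% of all 32851 windows in the table (2726). Cish, a classical STAT5 target measured here as a readout of the same receptors, held 2 copies. The TEAD motif GGAATG, searched on both strands and able to share its letters GAA with the first motif, was in 14.7% of all windows, and in windows of Tph1, Htr2b and Htr1d. The 4 windows are shown because they set the receptor gene beside the 2 hydroxylase genes and the reference target. Capitals mark TTCNNNGAA. A match is a description of the letters only.
Prlr, chr15:10223656-10223955, plus strand: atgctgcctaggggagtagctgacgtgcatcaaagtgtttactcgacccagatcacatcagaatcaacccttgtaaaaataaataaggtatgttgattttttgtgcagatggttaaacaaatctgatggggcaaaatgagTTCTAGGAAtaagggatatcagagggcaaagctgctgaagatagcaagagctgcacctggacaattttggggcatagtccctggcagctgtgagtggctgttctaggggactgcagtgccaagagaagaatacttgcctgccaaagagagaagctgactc
Tph1, chr7:46672488-46672787, minus strand: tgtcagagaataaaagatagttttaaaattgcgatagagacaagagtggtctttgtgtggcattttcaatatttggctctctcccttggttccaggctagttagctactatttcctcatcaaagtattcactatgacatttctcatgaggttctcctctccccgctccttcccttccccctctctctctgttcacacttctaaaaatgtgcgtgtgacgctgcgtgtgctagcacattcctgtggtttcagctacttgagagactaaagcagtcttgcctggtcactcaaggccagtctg
Tph2, chr10:115184973-115185272, minus strand: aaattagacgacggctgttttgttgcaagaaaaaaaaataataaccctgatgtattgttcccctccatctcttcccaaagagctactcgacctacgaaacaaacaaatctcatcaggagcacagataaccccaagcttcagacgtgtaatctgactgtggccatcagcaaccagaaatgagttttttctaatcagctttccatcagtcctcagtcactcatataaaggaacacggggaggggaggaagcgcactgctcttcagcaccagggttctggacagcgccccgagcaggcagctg
Cish, chr9:107296409-107296708, plus strand: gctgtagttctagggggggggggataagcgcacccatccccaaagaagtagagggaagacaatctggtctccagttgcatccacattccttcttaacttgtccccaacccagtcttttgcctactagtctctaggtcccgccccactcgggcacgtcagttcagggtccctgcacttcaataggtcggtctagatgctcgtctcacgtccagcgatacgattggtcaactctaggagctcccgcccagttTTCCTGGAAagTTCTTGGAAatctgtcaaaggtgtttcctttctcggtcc

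Across cell types, the genes of these axes differed in where they were highest (the plot of scores in every library). Hgf was highest in MΦs, Prlr, Tph1 and Tph2 were carried by β cells, Ghr was high in β cells and ECs, Met was present in all 3 cell types, and Htr2b was highest in ECs at baseline.

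**Figure D1:**
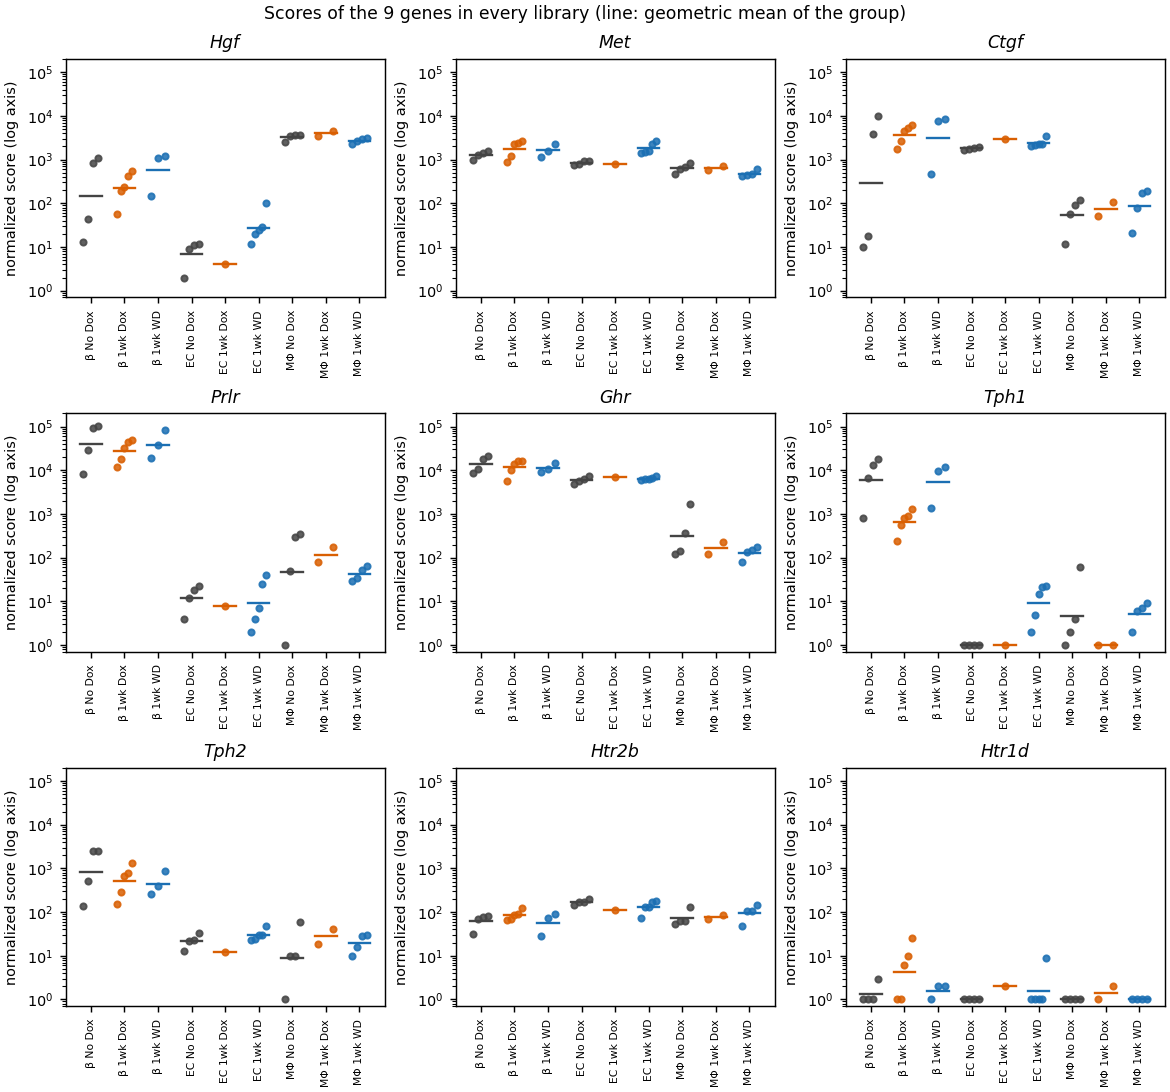
Score of each of the 9 genes (vertical log axis, normalized score) in each library, grouped on the horizontal axis by cell type and time point; each point is 1 library and the line is the geometric mean of its group. Hgf is highest in MΦs (2286 to 4500), Prlr is at least 8414 in every β-cell library and at most 340 elsewhere, and Tph1 is 238 to 1270 in all 5 β-cell libraries at 1wk Dox.

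Hgf (chr5:16059368-16125257, plus strand, mm9, as are all gene coordinates given here) had MΦ scores of 3582, 2478, 3648 and 3513 at No Dox, 3499 and 4500 with 1wk Dox, and 2638, 3071, 2286 and 2949 after 1wk WD. In ECs the scores were 11, 9, 2 and 12 at No Dox, 4 in the single 1wk Dox library, and 20, 12, 28, 99 and 24 at 1wk WD. In β cells they were 44, 13, 823 and 1070 at No Dox, 560, 242, 422, 196 and 56 with 1wk Dox, and 1230, 1101 and 149 after 1wk WD. All MΦ libraries were above all β-cell libraries, while the β-cell libraries of each time point were widely spread. On the log2(score + 1) scale the EC level was below the MΦ level by -8.63 (SE 1.20, limma adjusted p = 9.58e-05) at No Dox and -6.56 (SE 0.64, adjusted p = 1.17e-06) at 1wk WD. The β-cell level was below the MΦ level by -4.41 (SE 1.20, adjusted p = 0.00822) at No Dox and -2.21 (SE 0.73, adjusted p = 0.0191) at 1wk WD. The last of these did not pass without 1wk WD β-cell replicate 3 (-1.22, adjusted p = 0.0892).

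Between β cells and ECs, Hgf differed by 4.21 (SE 1.20, limma adjusted p = 0.0121) at No Dox and 4.35 (SE 0.70, adjusted p = 0.000161) at 1wk WD. The baseline difference was 1.69 (adjusted p = 0.117, where 45.4% of genes passed) without the acinar-rich libraries, which leaves No Dox β-cell replicates 1 and 2 with Hgf scores of 44 and 13. In bulk samples such as these, fewer cells of a type and less RNA per cell cannot be told apart.

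Met (chr6:17413800-17523980, plus strand) had β-cell scores of 1442, 1594, 1266 and 965 at No Dox, 1229, 2264, 2432, 899 and 2631 with 1wk Dox, and 1166, 1608 and 2273 after 1wk WD. In MΦs it was 613, 857, 669 and 475 at No Dox, 569 and 705 with 1wk Dox, and 462, 449, 417 and 598 after 1wk WD. The β-cell libraries were above the MΦ libraries at both baseline and withdrawal. The difference was 1.02 (SE 0.21, limma adjusted p = 0.00158) at No Dox, just over the 2-fold limit and below it without No Dox β-cell replicate 1 (0.97) or 2 (0.92) or MΦ replicate 1 (1.00) or 4 (0.87), and 1.76 (SE 0.27, adjusted p = 8.44e-05) at 1wk WD. Against ECs the β-cell level at No Dox was higher by 0.60 (SE 0.21, adjusted p = 0.0332), under the 2-fold limit, and at 1wk WD it differed by -0.16 (SE 0.26, adjusted p = 0.624). ECs differed from MΦs by 0.41 (SE 0.21, adjusted p = 0.138) at No Dox and were higher by 1.92 (SE 0.23, adjusted p = 1.05e-05) at 1wk WD.

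Ctgf (chr10:24315248-24318489, plus strand) was present in all 10 EC libraries, with scores of 1702, 1909, 1752 and 1848 at No Dox, 2968 with 1wk Dox and 2307, 2227, 3545, 2067 and 2170 after 1wk WD. In MΦs it was 90, 122, 12 and 58, then 52 and 109, then 21, 194, 168 and 80. All EC libraries were above all MΦ libraries, by 5.06 at No Dox (SE 1.91, limma adjusted p = 0.0499) and 4.78 at 1wk WD (SE 0.80, adjusted p = 0.000184). The baseline call sat at the threshold and was lost without any 1 of the 8 EC and MΦ libraries (adjusted p = 0.063 to 0.125). It was also lost with no filter, no trend or a replicate block. The fit shared its spread with the No Dox β-cell libraries, which scored 10 to 9701. The call was kept when only ECs and MΦs were fitted and without the acinar-rich libraries. Over all alternatives the limma adjusted p was 5.29e-05 to 0.125. β cells differed from MΦs by 2.46 (SE 1.91, adjusted p = 0.294) at No Dox and were above them by 5.13 (SE 0.91, adjusted p = 3e-04) at 1wk WD. The No Dox difference from MΦs was 0.79 to 4.05 with 1 library left out, and -1.25 without the acinar-rich libraries. Against ECs the β cells differed by -2.60 (SE 1.91, adjusted p = 0.281) at No Dox, and by -6.93 (adjusted p = 0.000223) without the acinar-rich libraries or -4.27 (adjusted p = 0.049) without β-cell replicate 4, which both passed. At 1wk WD the difference from ECs was 0.35 (SE 0.87, adjusted p = 0.762), and 1.72 (adjusted p = 0.033) without β-cell replicate 3.

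Prlr (chr15:10106993-10303504, plus strand) had β-cell scores of 101286, 93572, 29925 and 8414 at No Dox, 18300, 48270, 32632, 11995 and 45413 with 1wk Dox, and 18761, 38525 and 81885 after 1wk WD. In ECs it was 2 to 41 and in MΦs 1 to 340. No β-cell library overlapped another cell type. The difference from ECs was 11.56 (SE 1.44, limma adjusted p = 4.64e-05) at No Dox and 11.85 (SE 0.79, adjusted p = 8.97e-08) at 1wk WD, and that from MΦs 9.43 (SE 1.44, adjusted p = 0.000181) and 9.80 (SE 0.82, adjusted p = 5.15e-07). MΦ replicate 4 at No Dox was at the lowest value of 1, and without it the baseline difference was 7.82, while without β-cell replicate 4 or MΦ replicate 2 or 3 it was up to 10.29, and it passed in each. Among the low values, ECs were below MΦs at 1wk WD by -2.05 (SE 0.72, adjusted p = 0.0283), which was -0.94 (adjusted p = 0.0766) with a pseudocount of 20 and did not pass without EC replicate 2, 3 or 4 or MΦ replicate 2 or 3 of that time point (adjusted p = 0.056 to 0.0761). Prlr and Agxt2 overlap on the same strand and share 155 of the 15494 exonic bases of Prlr, and Agxt2 scores were 1 to 552.

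Ghr (chr15:3267760-3533492, minus strand) was shared by β cells and ECs. Its β-cell scores were 18115, 21075, 10956 and 8818 at No Dox, 10088, 16043, 14143, 5664 and 16173 with 1wk Dox, and 9150, 10595 and 14468 after 1wk WD. In ECs they were 7365, 5550, 4874 and 6184 at No Dox, 7099 with 1wk Dox and 6609, 6042, 6272, 7245 and 6161 after 1wk WD, a range that overlapped the lowest β-cell library. In MΦs they were 81 to 1708, the highest being No Dox replicate 2, which also had the highest MΦ Prlr score (340) and Tph1 score (60). The β-cell level was above the MΦ level by 5.42 (SE 0.68, limma adjusted p = 4.04e-05) at No Dox and 6.41 (SE 0.24, adjusted p = 1.08e-09) at 1wk WD, and the EC level by 4.20 (SE 0.68, adjusted p = 0.000309) and 5.61 (SE 0.21, adjusted p = 1.33e-10). Between β cells and ECs the difference was 1.23 (SE 0.68, adjusted p = 0.154) at No Dox and 0.79 (SE 0.23, adjusted p = 0.0103) at 1wk WD, under the 2-fold limit. The baseline one passed when only these 2 groups were fitted (1.23, adjusted p = 0.00852), without the acinar-rich libraries (1.69, adjusted p = 0.000268) and without No Dox MΦ replicate 2 (1.23, adjusted p = 0.0185).

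The lactogen ligands were at or near the lowest value. Prl was at 1 in 31 of the 32 libraries and 26 in No Dox β-cell replicate 1, Gh was at most 7, and the placental lactogens Prl3d1 and Prl3b1 were at 1 in every library.

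Tph1 (chr7:53902500-53927907, minus strand) and Tph2 (chr10:114515697-114622078, minus strand) encode the 2 hydroxylases that start serotonin synthesis. The Tph1 scores in β cells were 17863, 13579, 6586 and 818 at No Dox, 556, 1270, 812, 238 and 890 with 1wk Dox, and 1384, 11891 and 9487 after 1wk WD. In ECs Tph1 was listed at 1 in all No Dox libraries and at 2 to 22 at 1wk WD, and in MΦs it was 1 to 60, so no fold between cell types is given. Tph2 in β cells was 2551, 2496, 514 and 140 at No Dox, 291, 787, 675, 157 and 1308 with 1wk Dox, and 262, 386 and 872 after 1wk WD. Elsewhere it was 12 to 48 in ECs and 1 to 58 in MΦs, and no β-cell library overlapped these. For Tph2 the difference between β cells and ECs was 5.19 (SE 1.08, limma adjusted p = 0.00193) at No Dox and 3.85 (SE 0.52, adjusted p = 3.96e-05) at 1wk WD, and between β cells and MΦs 6.24 (SE 1.08, adjusted p = 0.000459) and 4.45 (SE 0.55, adjusted p = 1.35e-05).

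Htr2b (chr1:87995601-88008545, minus strand) was low in all 3 cell types. Its scores were 167, 147, 198 and 173 in ECs, 70, 79, 31 and 81 in β cells and 130, 61, 63 and 52 in MΦs at No Dox. All 4 EC libraries were above all others. The β-cell level was below the EC level by -1.46 (SE 0.43, limma adjusted p = 0.0137), and the EC level was above the MΦ level by 1.24 (SE 0.43, adjusted p = 0.0334), a call lost without the acinar-rich libraries (0.97, adjusted p = 0.111, where 38% of genes passed) and without any 1 of the EC and MΦ libraries except MΦ replicate 1 (adjusted p = 0.0575 to 0.0873). At 1wk WD the EC scores were 167, 130, 75, 180 and 131 and overlapped the β-cell scores of 88, 28 and 74 (-1.19, SE 0.50, adjusted p = 0.0597). This difference passed without β-cell replicate 1, EC replicate 3 or MΦ replicate 2 of that time point (adjusted p = 0.0354 to 0.0482). The gene lies wholly inside Psmd1, which is on the opposite strand and scored 1735 to 3721. They share 252 of the 2131 exonic bases of Htr2b, and the kit's strand setting is not given in the sources used here, so reads of the 2 genes cannot be told apart there. Htr1d (chr4:135979439-136000313, plus strand) reached its highest score, 25, in 1wk Dox β-cell replicate 3.

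Counted over the 9 genes, 5 differed between β cells and ECs at No Dox (37.7% of all 16380 genes tested did), 6 between β cells and MΦs (43.2%) and 4 between ECs and MΦs (33.5%). At 1wk WD the counts were 4 (39.9% of 16435), 7 (46.2%) and 5 (40.3%). Tph1 was among those counted in each comparison of β cells with another type. A difference between sorted cell types was thus common among all genes, and the comparisons at a time point share libraries.

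Over time, 1 of the 6 genes tested in ECs passed, and none in the other cell types: Met in ECs (the plot of changes over time). Its EC scores were 757, 926, 794 and 948 at No Dox, 808 in the single 1wk Dox library, and 1584, 1508, 1411, 2612 and 2225 at 1wk WD. All 5 withdrawal libraries were above all baseline libraries, and the 1wk Dox library lay within the baseline range. Met rose by 1.09 (SE 0.18, 95% interval 0.69 to 1.48, limma adjusted p = 0.0102), a fold of 2.13. In ECs 1.76% of the 14167 genes tested passed in either direction, and 1.28% passed upward. Over the alternatives the change was 0.96 to 1.18 with adjusted p of 0.00926 to 0.0478, and without 1wk WD replicate 4 it was 0.96, which is under the 2-fold limit.

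**Figure D2:**
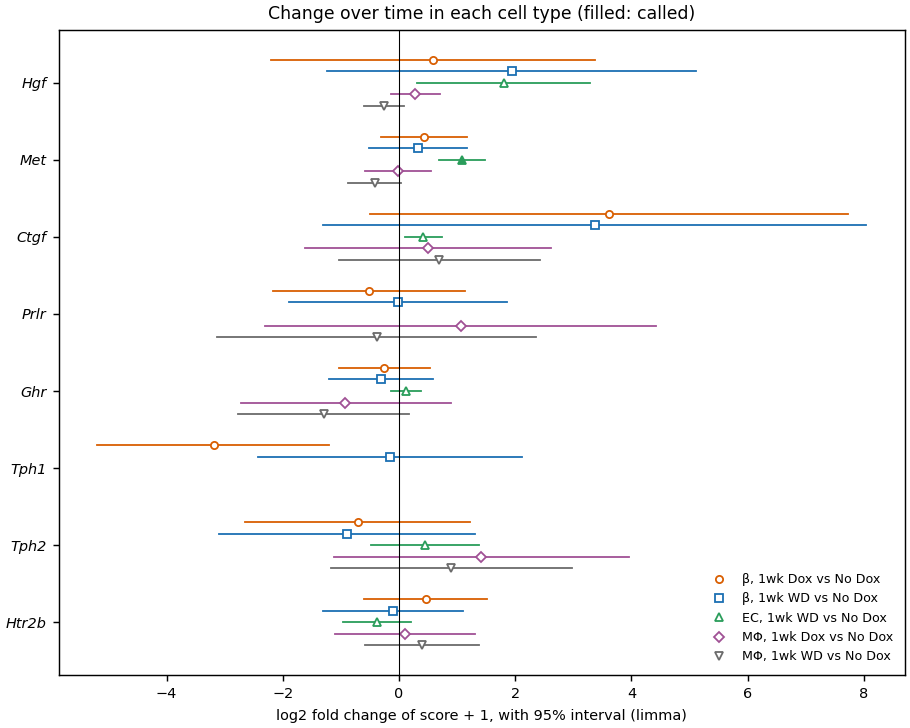
Change over time of the 8 tested genes in each cell type, as log2 fold change of score + 1 (horizontal axis) with 95% intervals from limma; each marker shape and color is 1 comparison and filled markers passed the call. The EC point of Met at 1wk WD (1.09) is the filled one, and the intervals of the β-cell genes are wide.

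The pericyte and fibroblast markers also differed between these EC libraries. Their index, the mean log2(score + 1) of the 10 markers, was 6.20 to 7.02 at No Dox, 6.89 with 1wk Dox and 7.24 to 8.95 after 1wk WD, so that withdrawal and baseline did not overlap. In the withdrawal libraries, in the order of the Met scores above, it was 8.54, 7.91, 7.24, 8.95 and 7.92. Replicate 4 was highest and replicate 3 lowest in both, while replicate 1, second in the index, was the third in Met. The EC marker index was 15.65 to 15.81 at No Dox and 15.37 to 15.53 after 1wk WD, also without overlap. That of the acinar markers was 12.40 to 17.30 and 5.27 to 12.65, overlapping through 1wk WD replicate 1. The part of any of these in the Met difference was not tested.

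In MΦs, Met at 1wk WD differed from baseline by -0.42 (SE 0.21, limma adjusted p = 0.335). The response of Met to withdrawal differed between ECs and MΦs by 1.51 (SE 0.29, adjusted p = 0.0134), where 1.4% of the 15603 genes tested passed. The response in β cells differed from that in ECs by -0.76 (SE 0.34, adjusted p = 0.365), where 0.0913% of 16431 genes passed, and from that in MΦs by 0.75 (SE 0.37, adjusted p = 0.708), neither past the threshold.

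The other genes of ECs stayed short of the call at 1wk WD. Ctgf differed by 0.42 (SE 0.15, limma adjusted p = 0.136), although all 5 withdrawal libraries were above all 4 baseline libraries. The study named it among growth factors of ECs and MΦs on these samples, so its direction there is not independent evidence. Hgf differed by 1.80 (SE 0.69, adjusted p = 0.159) at scores of at most 99, and Ghr by 0.12 (SE 0.12, adjusted p = 0.569). With 1 EC library at 1wk Dox, of the separate run of column codes, there was no replicate check. Of the 9 genes, the 5 that reached a mean score of 20 in either group all lay within 2-fold of the No Dox mean, where 10.7% of 14047 genes were beyond it. Its Ctgf score was above the baseline range (log2 difference 0.72), its Htr2b (-0.59) and Tph2 (-0.80) scores were below it, and Met (-0.08) and Ghr (0.26) were within it.

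In MΦs none of the 7 tested genes passed limma in any of the 3 comparisons, where 2.26% (induction against baseline), 0.626% (withdrawal against baseline) and 0.0866% (withdrawal against induction) of the 15014 genes tested did. None of the 7 was past 2-fold at an unadjusted p under 0.05 either, against 983, 746 and 273 of all genes. MΦ Hgf at 1wk WD differed from baseline by -0.26 (SE 0.16, limma adjusted p = 0.408). Against 1wk Dox it differed by -0.55 (SE 0.19, limma adjusted p = 0.37), under the 2-fold limit but the only one of these genes with an unadjusted p under 0.05 in MΦs, and all 4 withdrawal libraries (2286 to 3071) were below both induction libraries (3499 and 4500). Both induction libraries are of the separate run of column codes.

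In β cells none of the 8 tested genes passed limma. At 1wk Dox against No Dox 0.0122% of the 16346 genes tested passed (2 genes), and in both comparisons of 1wk WD 0% did. At an unadjusted p under 0.05 with a 2-fold difference, 1 of them was past the limits at 1wk Dox against No Dox, 0 at 1wk WD against No Dox and 1 at 1wk WD against 1wk Dox, against 660, 727 and 471 of all genes. That gene was Tph1 in both. It was lower at 1wk Dox than at No Dox by -3.19 (SE 0.91, limma adjusted p = 0.45, 95% interval -5.19 to -1.20) and higher at 1wk WD than at 1wk Dox by 3.03 (SE 0.99, adjusted p = 0.66). Of the 4 No Dox libraries 3 were above every 1wk Dox library, and the fourth, replicate 4 with 818, lay among them. At 1wk WD all 3 libraries were above all 5 at 1wk Dox. Against the baseline the withdrawal difference was -0.16 (SE 1.04, adjusted p = 0.969).

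The Tph1 result depended on how the β-cell content of the libraries was handled, by alternatives added after the values were seen. With the β marker index (mean log2(score + 1) of the 9 markers) as a covariate, the 1wk Dox difference was -2.76 (limma adjusted p = 0.00958, 1.02% of genes passing), and that of 1wk WD against 1wk Dox was 2.82 (adjusted p = 0.0419, 0.275% passing). Without the 2 acinar-rich No Dox libraries it was -4.57 (adjusted p = 0.00524, 7.36% passing). With the pericyte and fibroblast index as a covariate it was -1.82 (adjusted p = 0.236, 2.12% passing). The 1wk Dox difference was negative in each of these.

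Prlr, Tph2 and Ghr followed the β marker index in β cells (the plot against the β marker index). Over the 12 β-cell libraries, which share both depth and mixture, Pearson's r of log2(score + 1) with the index was 0.98 for Prlr, 0.94 for Tph2, 0.90 for Ghr, 0.68 for Tph1 and 0.68 for Met, and 0.14 for Htr2b and -0.37 for Htr1d. The index was 16.23, 16.06, 14.15 and 12.80 at No Dox, 14.04, 15.07, 14.64, 13.06 and 15.15 with 1wk Dox, and 13.34, 14.34 and 16.11 after 1wk WD. Prlr differed by -0.52 (SE 0.75, limma adjusted p = 0.913) at 1wk Dox and -0.01 (SE 0.86, adjusted p = 0.999) at 1wk WD against No Dox. At 1wk Dox Ghr differed by -0.26 (SE 0.36, adjusted p = 0.909), Tph2 by -0.71 (SE 0.88, adjusted p = 0.891) and Met by 0.43 (SE 0.34, adjusted p = 0.828).

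**Figure D3:**
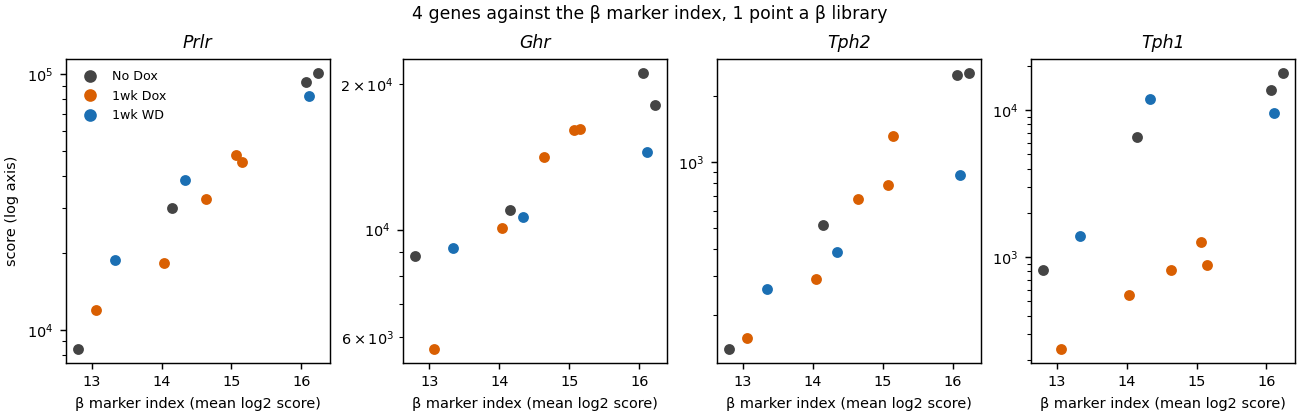
Scores (vertical log axes) of Prlr, Ghr, Tph2 and Tph1 against the β marker index (horizontal axis, mean log2 score + 1 of 9 β-cell markers), 1 point for each of the 12 β-cell libraries, colored by time point. Prlr follows the index (r = 0.98), while the 5 libraries at 1wk Dox have lower Tph1 than other libraries of like index.

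Ratios of 2 genes within a library do not depend on its scaling, and Prlr, the member that followed the β marker index most closely, was taken as the divisor (the plot of ratios). They were chosen after the scores had been seen. The log2 ratio of Tph1 to Prlr was -2.50, -2.78, -2.18 and -3.36 at No Dox, -5.04, -5.25, -5.33, -5.65 and -5.67 with 1wk Dox, and -3.76, -1.70 and -3.11 after 1wk WD. Every 1wk Dox library was below every other β-cell library. The mean was -5.39 ± 0.27 (SD, n = 5) at 1wk Dox against -2.71 ± 0.50 (n = 4) at No Dox, a difference of -2.68 (exact two-sided permutation p = 0.00794, the smallest possible). Over the 18 ratio comparisons run the adjusted p was 0.0643. At 1wk WD the mean was -2.86 ± 1.06 (n = 3), above 1wk Dox by 2.53 (exact permutation p = 0.0179, the smallest possible, adjusted 0.0643) and different from No Dox by -0.15 (exact permutation p = 0.829). None of the 18 comparisons passed 0.05 after adjustment.

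The same ratio was taken for the second hydroxylase, and the difference between the 2 ratios was not tested. The log2 ratio of Tph2 to Prlr was -5.31, -5.23, -5.86 and -5.90 at No Dox, -5.97, -5.94, -5.59, -6.25 and -5.12 with 1wk Dox, and -6.16, -6.64 and -6.55 after 1wk WD. The 1wk Dox libraries overlapped those of No Dox (difference -0.20, exact permutation p = 0.5), and the 1wk WD libraries were below those of No Dox by -0.87 (exact permutation p = 0.0286, the smallest possible, adjusted 0.0857). Ghr to Prlr overlapped between 1wk Dox and No Dox (0.26, exact permutation p = 0.659).

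The next steps of serotonin handling were set beside the same receptor. Ddc encodes the decarboxylase that makes serotonin from the product of the hydroxylases. Its β-cell scores were 14761, 13051, 4982 and 1357 at No Dox, 4436, 11910, 9067, 2922 and 9963 with 1wk Dox, and 2569, 4352 and 10247 after 1wk WD. The log2 ratio of Ddc to Prlr was -2.03 ± 0.12 (SD, n = 5) at 1wk Dox and -2.71 ± 0.12 (n = 4) at No Dox, without overlap and in the direction opposite to Tph1 (0.68, exact permutation p = 0.00794, adjusted 0.0643). At 1wk WD it was -3.00 ± 0.14 (n = 3), below 1wk Dox by -0.98 (exact permutation p = 0.0179, adjusted 0.0643). Slc18a1, a vesicular monoamine transporter, had a ratio to Prlr that was lower at 1wk WD than at 1wk Dox by -1.05 (exact permutation p = 0.0179, adjusted 0.0643). All these ratios share Prlr as divisor. At 1wk Dox against No Dox the Slc18a1 ratio differed by 0.37 and that of Ghr by 0.26, while that of Tph2 differed by -0.20. At 1wk WD against 1wk Dox the Tph2 ratio differed by -0.68 and that of Ghr by -0.55. The part of Prlr itself in these ratios was not tested.

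**Figure D4:**
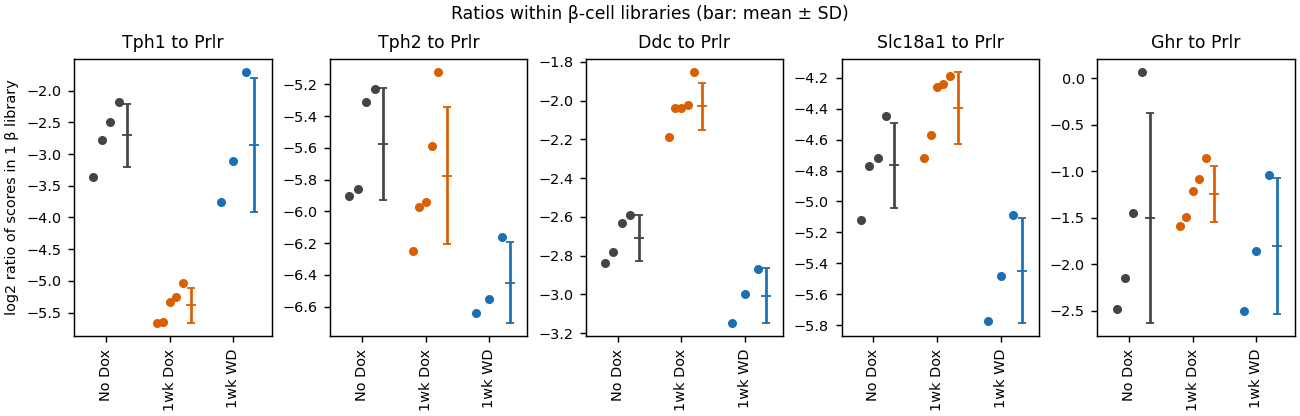
Log2 ratios of scores within β-cell libraries (vertical axes) for Tph1, Tph2, Ddc, Slc18a1 and Ghr over Prlr at the 3 time points, with 1 point a library and bars for mean ± SD. Tph1 to Prlr is lowest at 1wk Dox (-5.67 to -5.04) and Ddc to Prlr is highest there.

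Ctgf and Hgf in β-cell libraries varied with the pericyte and fibroblast markers (the plot against Pdgfrb). Ctgf scores were 18, 10, 3894 and 9701 at No Dox, 6082, 2607, 4557, 5239 and 1720 with 1wk Dox, and 8335, 7583 and 459 after 1wk WD. No Dox replicates 1 and 2 stood apart from all other β-cell libraries. Pdgfrb, a receptor of pericytes, was 80, 66, 13692 and 49477 at No Dox, 29295, 10492, 20841, 34404 and 6919 with 1wk Dox, and 48280, 40295 and 3980 after 1wk WD, low in the same 2 libraries. The pericyte and fibroblast index was 5.20, 4.33, 13.01 and 14.55 at No Dox, 14.05, 13.00, 13.44, 13.89 and 12.21 with 1wk Dox, and 14.44, 14.23 and 10.48 after 1wk WD. Over the 12 libraries r with this index was 1.0 for Ctgf and 0.86 for Hgf, and with the β marker index -0.82 and -0.76. With the mean log2(score + 1) of the MΦ markers it was 0.71 for both, although the gate excluded CD11b+ cells, and with those of the EC markers 0.40 and 0.41. The part of either was not tested.

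**Figure D5:**
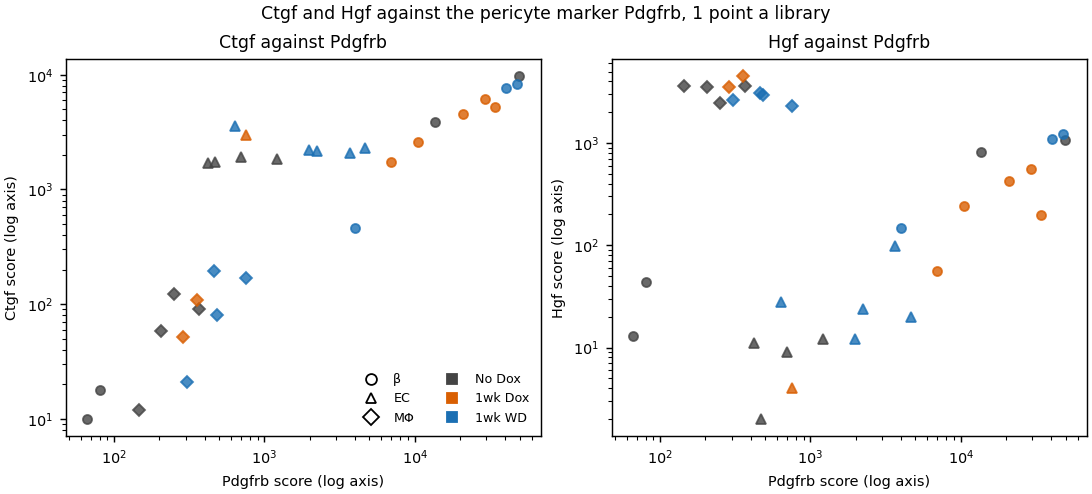
Scores of Ctgf and Hgf (vertical log axes) against the score of Pdgfrb (horizontal log axis), 1 point a library, with shapes for cell types and colors for time points. In β-cell libraries both genes lie along Pdgfrb, with No Dox replicates 1 and 2 at the low end. ECs lie above that line for Ctgf and MΦs for Hgf, while MΦs are scattered around it for Ctgf.

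Ctgf differed between 1wk Dox and No Dox β cells by 3.62 (SE 1.88, limma adjusted p = 0.738) and after 1wk WD by 3.37 (SE 2.14, adjusted p = 0.649). Without the 2 acinar-rich No Dox libraries the differences were 7.98 (adjusted p = 0.00101, where 7.36% of genes passed) and 7.73 (adjusted p = 0.00187, where 8.74% passed), and with the pericyte and fibroblast index as a covariate -0.34 and -0.33. The 2 libraries left as baseline were those with the lowest index. The log2 ratio of Ctgf to Pdgfrb was -2.24 ± 0.29 (SD, n = 5) at 1wk Dox and -2.22 ± 0.34 (n = 4) at No Dox (-0.02, exact permutation p = 0.929). Hgf differed by 0.58 (SE 1.28, adjusted p = 0.95) at 1wk Dox and 1.94 (SE 1.46, adjusted p = 0.684) at 1wk WD, and by 4.55 (adjusted p = 0.0264) at 1wk WD without the acinar-rich libraries. With the pericyte and fibroblast index as a covariate the Hgf differences turned to -1.92 (adjusted p = 0.106) and -0.41 (adjusted p = 0.866).

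The other genes of these pathways were read from 7 lists with 86 genes beside the 9. In β cells none passed limma over time in any list, and 1, 0 and 1 of them were past 2-fold at an unadjusted p under 0.05 in the 3 comparisons. Between 1wk Dox and No Dox the median log2 difference was -0.05 over 17 tested genes of the HGF axis, -0.08 over 13 of prolactin and growth hormone signaling, -0.07 over 14 lactogen-responsive islet genes and -0.04 over 12 of serotonin synthesis, transport and breakdown, against 0.03 over all genes. It was 0.78 over 5 CCN family genes, 0.80 over 11 YAP and TEAD genes and 1.58 over 5 other serotonin receptors. At 1wk WD against No Dox these last 3 medians were 1.46, 1.22 and 2.80, against 0.06 over all genes. At No Dox a mean score of 20 was reached in any cell type by 3 of the other serotonin receptors and 10 YAP and TEAD genes. The rest of these 5 and 11 genes were tested only through their 1wk Dox or 1wk WD level, which favors a positive median. Cyr61, another CCN family gene and YAP target, scored 38, 8, 1980 and 4491 at No Dox, 2381, 1150, 1837, 1241 and 642 with 1wk Dox and 2493, 1924 and 254 after 1wk WD. Yap1 scored 108, 20, 1430 and 4076, then 2704, 768, 1573, 2588 and 607, then 3201, 2633 and 278. Both were lowest in the 2 No Dox libraries with the lowest pericyte and fibroblast index.

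The STAT5 targets Cish and Socs2, feedback inhibitors of cytokine receptors, scored 1024 to 9224 and 1891 to 7666 in β cells. Cish was higher in β cells than in ECs by 2.34 (SE 0.61, limma adjusted p = 0.00721) and in MΦs by 3.57 (SE 0.61, adjusted p = 0.000388) at No Dox. Between 1wk Dox and No Dox β cells Cish differed by -0.05 (SE 0.63, adjusted p = 0.994) and Socs2 by -0.01 (SE 0.45, adjusted p = 0.999).

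At No Dox, 8 of the 12 tested genes of serotonin synthesis, transport and breakdown differed between β cells and ECs (6 higher, 2 lower in β cells, where 37.7% of all genes differed) and 7 between β cells and MΦs (5 higher, 2 lower, where 43.2% did). Against ECs, Ddc was higher in β cells by 7.60 (SE 0.75, limma adjusted p = 8.39e-06), Slc18a1 by 7.27 (SE 0.71, adjusted p = 8.2e-06) and the monoamine oxidase Maob by 6.73 (SE 0.67, adjusted p = 8.67e-06). Slc18a2, the other vesicular transporter, was lower in β cells than in ECs by -1.10 (SE 0.22, adjusted p = 0.00156). The serotonin receptor Htr2a scored 435 to 716 in ECs and at most 126 elsewhere. Slc6a4, the serotonin transporter, was at most 185 in any library.

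In ECs at 1wk WD, 1 of the 13 tested genes of prolactin and growth hormone signaling passed, where 1.76% of all genes did. Igf1, insulin-like growth factor 1 and a growth hormone target, scored 3900, 6468, 6831 and 6088 at No Dox, 7382 with 1wk Dox and 12325, 13462, 11405, 12577 and 11606 after 1wk WD. The withdrawal libraries were above all others. Igf1 rose by 1.11 (SE 0.15, limma adjusted p = 0.00335). The pericyte and fibroblast index and the EC marker index given above for Met also differed between the same libraries, and their part was not tested. Igf1 is also among the growth factors that the study named on these samples. No tested gene of the other 6 lists passed limma in ECs, and 3 were past 2-fold at an unadjusted p under 0.05, as were 678 of all 14167 genes.

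In MΦs at 1wk Dox against No Dox, 4 list genes rose, where 2.26% of all genes passed. Plau, the urokinase that can activate pro-HGF, scored 1310, 1326, 880 and 1220 at No Dox and 3408 and 2119 at 1wk Dox (1.20, SE 0.22, limma adjusted p = 0.0125), 1 of 17 tested genes of the HGF axis. Igf1 rose by 1.64 (SE 0.28, adjusted p = 0.0101), the cell cycle factor Foxm1 by 1.58 (SE 0.30, adjusted p = 0.0166) and the serotonin receptor Htr7 by 2.97 (SE 0.64, adjusted p = 0.0249). The MΦ group at 1wk Dox held 2 libraries, both of the separate run of column codes. The mean log2(score + 1) of the EC markers in MΦs was 5.88 to 7.03 at No Dox and 7.90 to 8.27 in these 2, without overlap. That of the acinar markers was 6.67 to 8.52 in these 2 and at least 11.49 at No Dox, and that of the Schwann cell markers 4.70 to 4.89 and 3.72 to 4.34, also without overlap. The part of the EC and Schwann cell transcripts in these differences was not tested. Without the acinar-rich No Dox libraries, replicates 2 and 4, all 4 genes passed (limma adjusted p = 0.00457 to 0.0253, where 6.41% of all genes did), with Htr7 at 1.95 (SE 0.36). Between the responses of ECs and MΦs to withdrawal, the monoamine oxidases Maoa (1.46, SE 0.30, adjusted p = 0.0195) and Maob (4.05, SE 0.80, adjusted p = 0.0158) passed, where 1.4% of all genes did. Without the acinar-rich libraries Maoa did not pass (1.41, SE 0.37, adjusted p = 0.055). Maoa in ECs scored 571, 651, 777 and 741 at No Dox and 1149, 1184, 2193, 1302 and 1088 at 1wk WD, above all baseline libraries. Maob in ECs scored 10, 23, 25 and 15 at No Dox and 30, 30, 45, 73 and 18 at 1wk WD, a difference of 0.99 (SE 0.49, limma adjusted p = 0.262). In MΦs it scored 30, 190, 45 and 41 at No Dox and 3, 5, 10 and 8 at 1wk WD, below all baseline libraries, a difference of -3.06 (SE 0.73, limma adjusted p = 0.0607).

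Genes with the most similar pattern were taken by Pearson's r of log2(score + 1). Over all 32 libraries these were Abca9 (0.981), 5430435G22Rik and Runx2 for Hgf, Atpbd4 (0.899), Zfp352 and Casz1 for Met, Pla2r1 (0.983), Aebp1 and Fstl1 for Ctgf, and Fam19a1 (0.984), Aff2 and Gdap1 for Prlr. For Ghr they were Lmo7 (0.988), Mtap2 and Tead1, for Tph1 the catecholamine enzyme gene Th (0.961), Dlgap1 and Slco1a6, for Tph2 Ccdc162 (0.977), the incretin receptor gene Gipr and Vil1, and for Htr2b Arid2 (0.733), Ppp2r5e and Snapc3. Over the 12 β-cell libraries Ctgf was most like the mesenchymal intermediate filament genes Vim (0.997) and Des (0.996) and the matrix gene Ecm2 (0.997). Prlr was most like Dnahc8 (0.988) and Slc3a1, and Tph2 most like Ogdhl (0.988), Fam190a and Il1r1. Tph1 had lower values, with Gprin3 (0.935), Kcnn3 (0.925) and D330045A20Rik (0.924). In the same libraries Hgf was most like Prr5 (0.973), Lrrk2 and Fam13c, Met most like Nipa1 (0.949), Rasgrf1 and Unc13a, Ghr most like Elp4 (0.984), Mtap2 and Tmem132b, and Htr2b most like Pafah1b1 (0.86), Pfdn4 and Zfp410.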

How the data were processed

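Per the labels and the study's methods, RNA of sorted cells was amplified and sequenced as 50 bp paired-end reads, mapped to mm9 with TopHat2 2.0 (submitters' processing notes), and quantified by the authors in Avadis NGS with TMM normalization. The deposited values are a score per gene, whole numbers with a lowest value of 1, so the depth of each library is unknown, and totals of 23465985 to 53441769 reflect the scaling. RNA integrity limits differ between labels and methods. Of 38 value columns, 32 matched the samples and 6 were not used.

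Groups followed the labels. Scores were tested as log2(score + 1) with limma 3.58.1 (R 4.3.3) with a trended spread, after dropping genes whose mean stayed under 20 in every group fitted, and Benjamini-Hochberg adjustment over all of them. A call needed an adjusted p under 0.05 and a 2-fold difference, the study's limits, but not its z-score test. β-cell and MΦ fits held 3 time points, EC fits No Dox and 1wk WD, cell type fits 3 cell types, and differences of responses 4 groups. Single ratios were tested by exact permutation (numpy 2.4.6, Python 3.11.15). The fits were tested on simulated data. The labels call the samples replicates, each a pool of mice, and p-values measure the spread between these pools.

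The 9 genes and 7 lists were chosen with earlier results of these data known. Named genes were the 9, list genes past the call, list genes of the highest mean score, the 3 most similar genes per member (1 is not reported here) and genes overlapping a member. Cyr61, Yap1, Pdgfrb, Ddc, Slc18a1, Maob, Slc6a4, Cish, Socs2 and the lactogen ligands were also named after their values were seen. Alternatives were a pseudocount of 20, no filter, median-of-ratios rescaling, no trend, only the 2 groups compared, a replicate block, each library left out, and, added after the values were seen, leaving out libraries with over 4% acinar transcripts and marker indices as covariates. Promoter sequences came from RefSeq (GRCm38.p6). Gene coordinates are those of the deposited table.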

Additional observations from a re-analysis of the deposited data

Results flagged for a closer look

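Among 48 sets of scores with at least 2 libraries above the lowest value of 1, each of 1 gene in a group of 4 to 10 libraries, 3 had a library apart from the rest by Dixon's test on log2(score + 1) at the 95% level, where chance gives about 1 in 20. In MΦs at No Dox, Hgf of replicate 2, an acinar-rich library, was 2478 and the others 3513 to 3648. In ECs at 1wk WD, Ctgf of replicate 3 was 3545 and the others 2067 to 2307. In β cells at No Dox, Htr2b of replicate 3, also acinar-rich, was 31 and the others 70 to 81. The test says nothing in the other 6 sets, where any single score above 1 stands apart by construction. Among these Htr1d was 3 in replicate 3 of the β cells at No Dox and 9 in replicate 4 of the ECs at 1wk WD, with all others of those groups at 1.

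The response of Met to withdrawal differed between ECs and MΦs by 1.51 on the log2 scale (limma adjusted p = 0.0134), by the test of the difference itself. It was above 0 in ECs in all 5 withdrawal libraries against every baseline library.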

How the results depend on the processing

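For the genes of these axes and the ratios, 68 single results and 18 counts of genes were recomputed, each under the alternatives that applied to it. Marker indices were used as covariates only for β cells over time. For the other list genes, refits are given only without the acinar-rich libraries, and only for some of them. Over the runs that left out 1 library, the β-cell differences reached or crossed 0 for Hgf (-0.57 to 1.52) and Ghr (-0.47 to 0.00) at 1wk Dox, for Prlr (-0.75 to 0.51) and Tph1 (-1.12 to 0.82) at 1wk WD against No Dox, and for the ratios Tph1 to Prlr at 1wk WD (-0.73 to 0.31), Ghr to Prlr (-0.07 to 0.78) and Ctgf to Pdgfrb (-0.15 to 0.11) at 1wk Dox. None of these was called. They also crossed 0 at 1wk WD between β cells and ECs for Met (-0.40 to 0.08, and 0.07 with a replicate block) and Ctgf (-0.37 to 1.72). In the same runs the genes called numbered 0 to 1 in ECs at 1wk WD (Met) and 2 to 4 between ECs and MΦs at No Dox. In the single 1wk Dox EC library, where no test was possible, 0 to 1 genes were past 2-fold (Tph2, without No Dox EC replicate 4).

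With the pericyte and fibroblast index as a covariate, β-cell differences at 1wk Dox turned for Hgf (-1.92), Ctgf (-0.34), Prlr (0.82), Ghr (0.26) and Tph2 (0.89), and at 1wk WD against No Dox for Hgf (-0.41), Ctgf (-0.33), Prlr (1.23) and Tph1 (1.12). With the β marker index they turned at 1wk WD for Prlr (0.19) and Tph1 (0.07), and the genes called numbered 1 at 1wk Dox against No Dox and 1 between withdrawal and induction, Tph1 in both. Without the acinar-rich libraries the genes called in β cells numbered 2 at 1wk Dox (Tph1, Ctgf) and 2 at 1wk WD against No Dox (Hgf, Ctgf), Ctgf to Pdgfrb turned to 0.11, Ctgf between β cells and MΦs at No Dox turned to -1.25, and responses differed for 3 genes between β cells and ECs at 1wk WD (Ctgf, Tph1, Tph2, with 14% of all genes), for 1 between β cells and MΦs (Hgf, with 6.8%), and for 2 between β cells and MΦs at 1wk Dox (Ctgf, Tph1, with 5.6%). This leaves 2 β-cell libraries at baseline. The causes were not tested.

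Whether same-numbered libraries came from the same pools was not settled, and the main fits took them as independent. Between ECs and MΦs, correlations of same-numbered deviations were -0.116 to 0.384 at No Dox and -0.0738 to 0.142 at 1wk WD. The best match was the same number for replicates 1 and 2 at No Dox and 1, 2 and 4 at 1wk WD. For the rest it was another number. With a replicate block, 2 genes were called between ECs and MΦs at No Dox, where Ctgf (adjusted p = 0.0699) and Htr2b (0.0589) were lost, as was Hgf between β cells and MΦs at 1wk WD (-1.90, 0.0582). Median-of-ratios rescaling changed no call. Small groups and unknown depth limit all comparisons.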
